A study of Oryctolagus cuniculus with 134 samples.

Results

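The genes examined were the Wnt ligands, the receptors that bind them, their secreted inhibitors and the factors that carry the signal to the nucleus, measured by RNA sequencing in the aorta and the 4 heart valves of rabbits. Members were chosen by name, as every gene whose symbol began with WNT, FZD, SFRP, DKK, RSPO, AXIN or TCF7 and a number where the family has one, together with LRP5, LRP6, LEF1, WIF1 and FRZB. Of the 29587 genes in the tables, 41 were members: 17 Wnt ligands, 2 R-spondins, 9 receptors (8 Frizzled receptors and the co-receptor LRP6), 8 inhibitors, the intracellular protein AXIN2, and 4 nuclear factors of the TCF/LEF family. LRP5, AXIN1, SFRP1, RSPO1, RSPO4, DKK4, WNT4, WNT7B, FZD8 and FZD10 matched no symbol and were not analysed here.

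The animals were 27 male New Zealand White rabbits, 12 weeks old at the start of a 16-week protocol, and each gave 1 library per tissue, with 1 mitral library fewer. Ctrl rabbits received chow alone. CHT rabbits received chow with 0.3% cholesterol and, on 15 days, vitamin D2 in the drinking water, dosed by body weight, and Lard rabbits received chow with 5% lard and the same vitamin D2. IR/CHT rabbits had the CHT regimen and, after 8 weeks of diet, an X-ray beam aimed at the aortic valve and thoracic aorta, in 3 fractions of 8 Gy (24 Gy in all). Groups had 7 Ctrl, 6 CHT, 7 Lard and 7 IR/CHT libraries per tissue, with 6 Ctrl libraries in the mitral valve. Rabbits on chow with vitamin D2 alone or irradiated on chow alone were not analysed here, so diet and vitamin D2 cannot be told apart in any comparison with Ctrl, and only IR/CHT against CHT compares irradiated with non-irradiated rabbits on 1 diet.

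Wnt ligands are secreted, lipid-modified proteins that bind a Frizzled receptor and, in the canonical branch, a co-receptor of the LRP family. Binding stops a cytoplasmic complex containing AXIN2 or its relative from destroying beta-catenin, which then enters the nucleus and activates genes through TCF and LEF factors. R-spondins strengthen the signal by keeping Frizzled receptors at the cell surface, SFRP proteins, FRZB and WIF1 bind the ligands themselves, and DKK proteins act on the LRP co-receptor. The pathway takes part in valve formation in the embryo and is known from studies of calcification of the aortic valve and of the arterial wall.

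Library totals ran from 13564979 to 50577676 counts. Levels are given as CPM, counts divided by library size and scaled within a tissue by the TMM method, and are compared between samples of 1 gene and never between genes. A gene was called when edgeR's quasi-likelihood test gave a Benjamini-Hochberg adjusted p under 0.05 over all genes tested in that tissue and the fold change exceeded 1.5. After a filter on low counts, 31 members were tested in the aorta and 34 in each valve. WNT3A never exceeded 3 counts in a library. WNT1, WNT3, WNT6 and WNT10A also passed the filter in no tissue, with highest counts of 23, 16, 43 and 28. In bulk tissue, fewer cells of a type and less RNA per cell cannot be told apart.

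The labelled tissues were checked against marker genes. In Ctrl rabbits the summed level of 7 smooth muscle markers had a median of 102376 CPM in the aorta and of 803.5 to 1255 CPM in the valves. TBX5, a transcription factor of the heart chambers that was at 12.0 to 126 CPM in the other tricuspid libraries, stood at 0.0669 CPM in 1 tricuspid Lard library and at 36.2 CPM in the pulmonary Lard library of the same rabbit (other pulmonary libraries 0 to 2.62 CPM), so this pair went against its labels. Another 8 libraries stood apart by heart muscle, smooth muscle, endothelial or collagen genes: 1 aorta library, 2 from the aortic valve, 2 from the pulmonary and 3 from the tricuspid valve. Where the count of called members differed without these 10 libraries, it is given beside the comparison. The deposited counts were divided into 2 plates of 67 libraries, and the laboratory step that the plates belong to is not named. Plate 2 held every aorta library, and plate 1 held every CHT library of the left-sided valves.

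**Figure D1:**
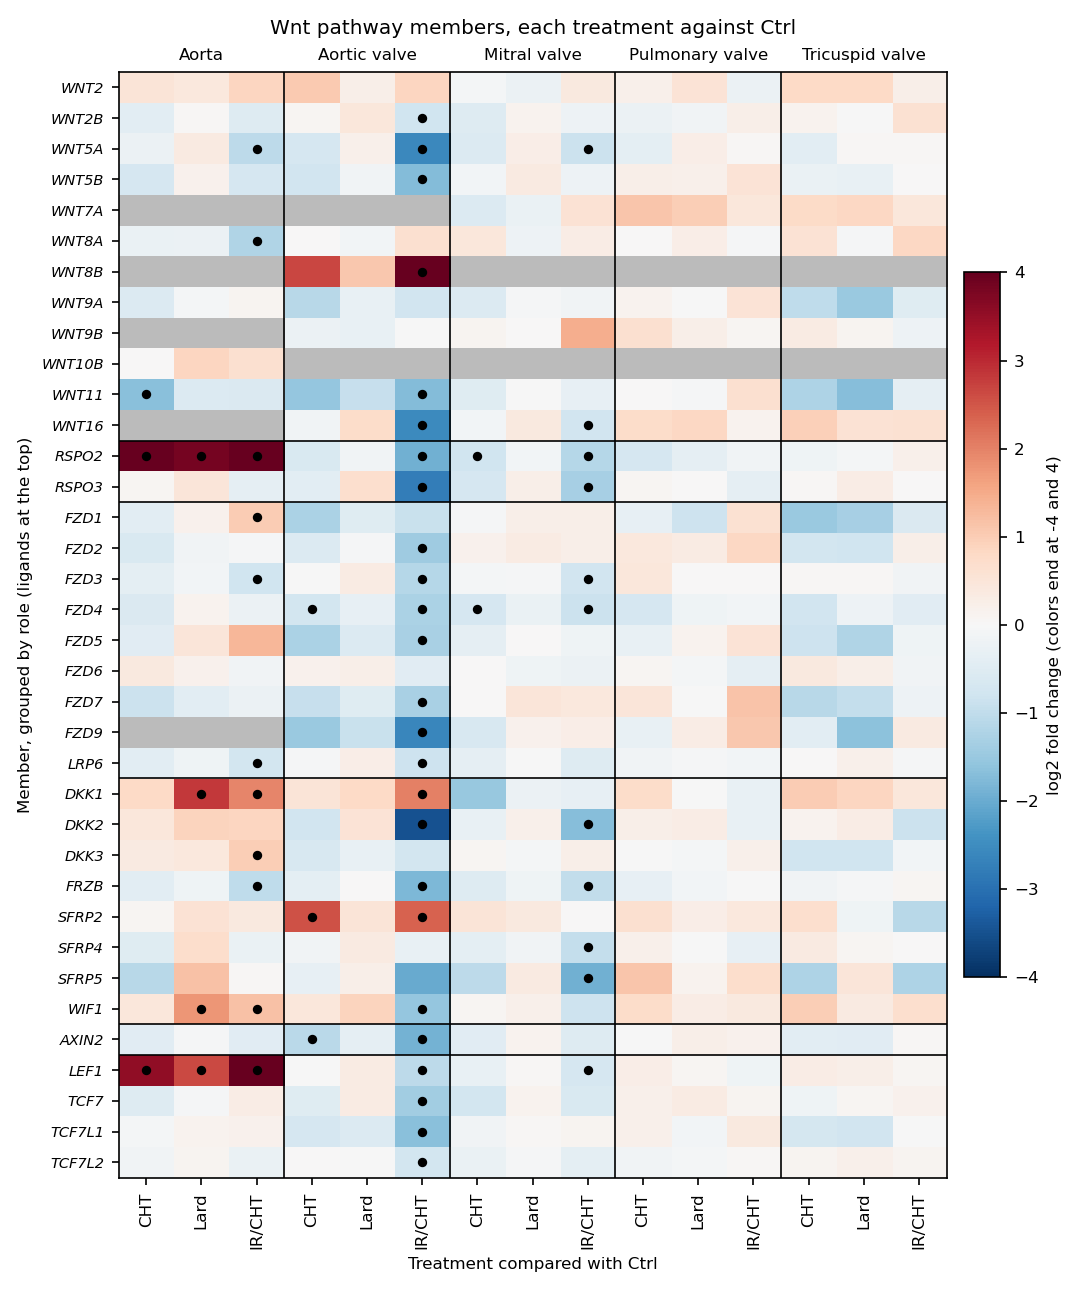
Log2 fold change of each tested member (vertical axis, grouped by role) for CHT, Lard and IR/CHT against Ctrl in each of the 5 tissues (horizontal axis). Dots mark called members, grey cells were not tested, and the color of WNT8B depends on the prior count because its Ctrl libraries were at the floor. Calls fall in the aorta and in the aortic and mitral valves, with 25 in the aortic valve under IR/CHT and 0 in the pulmonary and tricuspid valves.

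In Ctrl rabbits the aorta differed from the valves in many Wnt members, most of them lower in the aorta. The nuclear factor LEF1 (ENSOCUG00000010436), the ligand WNT16, the R-spondins RSPO2 and RSPO3 and the inhibitors WIF1, DKK2 and DKK3 were lower, and the ligand WNT8A was higher. With the rabbit as a block, 19 of 34 tested members were called between the aorta and the mean of the 4 valves, 16 lower and 3 higher in the aorta. Over all genes 36.1% were called, 20.4% lower and 15.7% higher. The members' median log2 fold change was -0.69 and that of all genes was 0.01, and in 7 members (8.52% of all genes) the aorta did not overlap the valves. Without the libraries that stood apart 21 members were called, with FZD6 and WNT11 added.

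LEF1, which partners beta-catenin on DNA, was at 0.44, 0.562 and 1.61 CPM in the Ctrl aorta (lowest, median and highest library on the scale of the Ctrl libraries). Its medians were 66.7 CPM in the aortic valve, 81.7 CPM in the mitral valve, 57.6 CPM in the pulmonary valve and 38.9 CPM in the tricuspid valve, and its lowest valve library had 34 CPM. The log2 difference was -6.08 ± 0.21 (SE, adjusted p = 5.59e-19). WNT16 showed the same separation, with 0 to 0.248 CPM in the aorta, at most 4 counts a library, and valve libraries from 75 CPM in the pulmonary to 513 CPM in the mitral valve (adjusted p = 4.48e-18). RSPO2 had an aortic median of 0.31 CPM and a highest aortic library of 0.687 CPM, against valve medians of 53.3, 56.3, 33.9 and 28.6 CPM in the aortic, mitral, pulmonary and tricuspid valves (-6.96 ± 0.35, adjusted p = 1.8e-15). No aortic library of these genes reached the lowest valve library. WNT16 and RSPO2 passed the filter on low counts largely through the valves, where they were high, so their calls are a description. With no filter both were also called.

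The other R-spondin, RSPO3, was at 6.12 to 17.5 CPM in the aorta and at 21.5 CPM or more in every valve library (-2.02 ± 0.18, adjusted p = 2.71e-10). WIF1, which binds Wnt ligands, had 3.75, 5.39 and 13.9 CPM in the aorta and a lowest valve library of 22.6 CPM (-3.62 ± 0.24, adjusted p = 9.08e-13). DKK2, which binds LRP6, had 1.44 to 3.98 CPM in the aorta and 9.94 to 62.6 CPM over the valves (-3.62 ± 0.24, adjusted p = 9.4e-13). DKK3 was also lower in the aorta, with overlapping libraries (-2.10 ± 0.24, adjusted p = 4.36e-08). WNT8A ran the other way, with an aortic median of 6.4 CPM and valve medians from 0.637 CPM in the tricuspid to 1.88 CPM in the aortic valve (2.45 ± 0.19, adjusted p = 2.7e-11), and every aortic library (3.08 CPM or more) lay above every valve library (2.87 CPM or less). DKK1 (-1.61 ± 0.50, adjusted p = 0.00906), AXIN2 (-0.92 ± 0.32, adjusted p = 0.0195) and TCF7 (-2.15 ± 0.28, adjusted p = 3.96e-07) were lower in the aorta with overlapping libraries. On plate 2 alone, which held the aorta libraries, DKK1 and AXIN2 were not called, DKK1 was not called with libraries of all 4 treatments, and AXIN2 lost its call without rabbit L08313 (adjusted p = 0.0686). DKK1 had at most 9 counts in an aortic library and passed the filter on low counts largely through the valves.

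**Figure D2:**
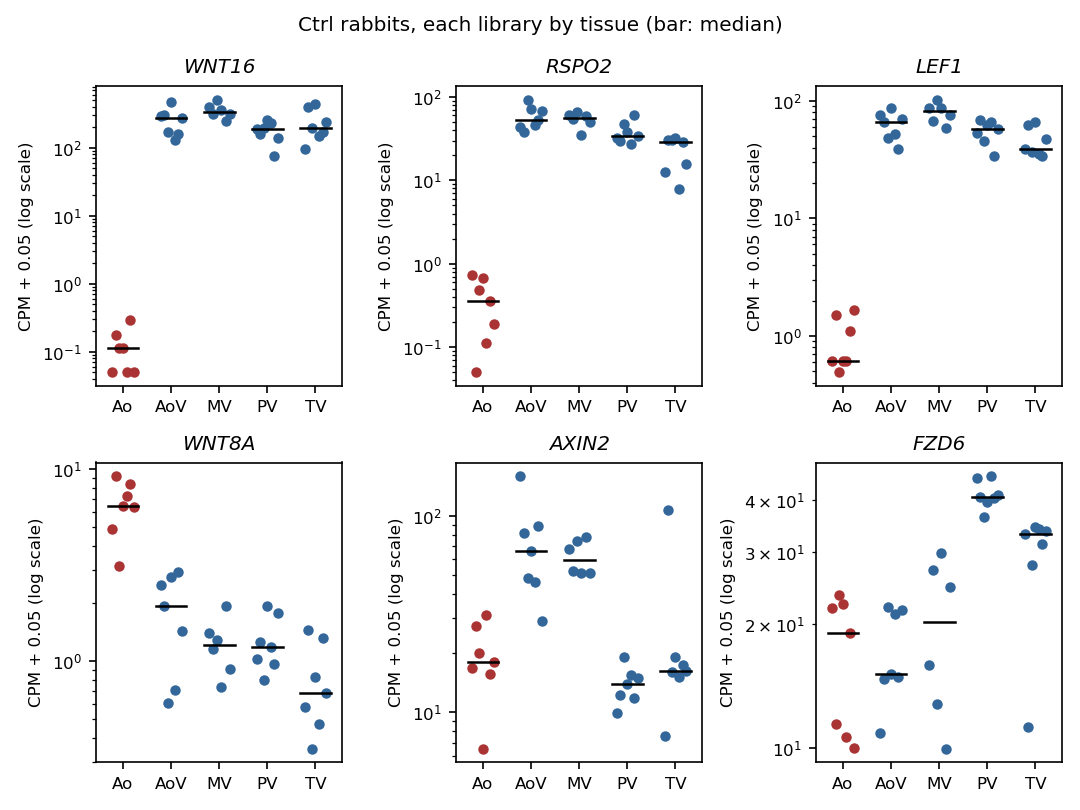
Level of 6 members in each Ctrl library (vertical axis, CPM + 0.05 on a log scale) in the aorta (Ao) and the aortic (AoV), mitral (MV), pulmonary (PV) and tricuspid (TV) valves, with bars at medians. WNT16, RSPO2 and LEF1 were lower in every aortic library than in any valve library, WNT8A was higher, and AXIN2 and FZD6 differed between left and right valves with overlap.

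Among the valves of Ctrl rabbits, the left side (aortic and mitral) differed from the right (pulmonary and tricuspid) in 20 of 34 members, 18 of them higher and 2 lower on the left. Over all genes 37.9% were called, 26.9% higher and 11.0% lower on the left, and the groups overlapped in every member. Without the libraries that stood apart 22 members were called, with LEF1 and SFRP5 added. AXIN2, an inhibitor of the pathway whose transcription the pathway itself raises, had 29, 66.1 and 158.7 CPM in the aortic valve and 51.2, 59.7 and 77.3 CPM in the mitral valve. It had 9.89, 13.9 and 19.1 CPM in the pulmonary valve and 7.48, 16.1 and 106 CPM in the tricuspid valve (1.98 ± 0.29, adjusted p = 1.56e-05). The tricuspid library at 106 CPM was 1 of the 10 libraries that stood apart.

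The receptors FZD2 (1.76 ± 0.27, adjusted p = 2.21e-05), FZD7 (2.01 ± 0.34, adjusted p = 3.98e-05) and FZD1 (2.15 ± 0.39, adjusted p = 6.57e-05) were higher on the left. So were the ligands WNT11 (2.25 ± 0.37, adjusted p = 3.27e-05) and WNT9A (1.59 ± 0.30, adjusted p = 9.67e-05) and the nuclear repressor TCF7L1 (1.48 ± 0.25, adjusted p = 4.32e-05). FZD6, a receptor of the planar polarity branch, was higher on the right, with medians of 40.6 and 33.2 CPM in the pulmonary and tricuspid valves and of 15.1 and 20.2 CPM in the aortic and mitral valves (-0.97 ± 0.17, adjusted p = 6.67e-05). The summed level of 8 endothelial markers had medians of 492.6 and 552.7 CPM in the aortic and mitral valves and of 1321 and 1214 CPM in the pulmonary and tricuspid valves, and heart muscle markers had a median of 9086 CPM in the tricuspid valve. Their part in these differences was not tested. Between semilunar (aortic and pulmonary) and atrioventricular (mitral and tricuspid) valves 1 member was called (6.13% of all genes, 1.60% higher in the semilunar valves), DKK2, higher in the semilunar valves (0.80 ± 0.17, adjusted p = 0.00232), and 6 were called without the libraries that stood apart. On plate 2 alone, which held 2 Ctrl libraries of each valve but the aortic, no member was called between left and right valves.

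The aorta under the 3 treatments is described next. The comparisons with Ctrl share its 7 libraries. RSPO2 and LEF1, both close to the detection limit in the Ctrl aorta, rose under CHT, Lard and IR/CHT in the fit of all 4 groups. Under CHT 3 of 31 members were called, 2 higher and 1 lower, where 19.4% of all genes were called, 14.2% higher and 5.18% lower. Under Lard 4 members were called, all higher, where 2.61% of all genes were called, 2.57% higher. Under IR/CHT 11 were called, 6 higher and 5 lower, where 34.3% of all genes were called, 22.2% higher and 12.2% lower. The members' median log2 fold change was -0.39 under CHT, 0.18 under Lard and -0.04 under IR/CHT, beside medians of all genes of -0.04, 0.01 and 0.00.

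RSPO2 (ENSOCUG00000000779), the secreted amplifier of Wnt signaling, had 0, 0.273 and 0.625 CPM in the Ctrl aorta. It had 2.43, 4.98 and 6.8 CPM under CHT, 0.534, 4.88 and 7.86 CPM under Lard and 4.79, 6.1 and 10.6 CPM under IR/CHT. All CHT and IR/CHT libraries and 6 of 7 Lard libraries lay above the highest Ctrl library. The log2 fold changes were 4.03 ± 0.56 (adjusted p = 4.57e-06), 3.82 ± 0.55 (adjusted p = 0.000685) and 4.58 ± 0.56 (adjusted p = 3.36e-07). RSPO2 had at most 11 counts in a Ctrl library. It passed the filter on low counts largely through the treated groups, so these calls are a description. With no filter RSPO2 was also called under all 3 treatments.

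LEF1 had 0.393, 0.511 and 1.43 CPM in the Ctrl aorta. It had 4.26, 7.75 and 20.6 CPM under CHT, 0.16, 4.04 and 11.9 CPM under Lard and 8.42, 13.2 and 33.1 CPM under IR/CHT. CHT and IR/CHT did not overlap Ctrl, whereas 5 of 7 Lard libraries lay above the highest Ctrl library and 1 lay below the lowest. Log2 fold changes were 3.56 ± 0.62 (adjusted p = 8e-05), 2.65 ± 0.60 (adjusted p = 0.0142) and 4.40 ± 0.62 (adjusted p = 2.72e-06). Under CHT and under IR/CHT, RSPO2 and LEF1 were the 2 tested members with no overlap with Ctrl, where 10.2% and 19.2% of all genes had none.

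With only the Lard and Ctrl libraries in the fit no member was called under Lard. RSPO2 then had 3.84 (adjusted p = 0.0562), LEF1 2.65 (adjusted p = 0.0987) and WIF1 1.77 (adjusted p = 0.0904), and DKK1 did not pass the filter on low counts.

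The spread within the Lard group was wide. The Lard libraries L563 and L576 had the lowest LEF1 levels, 0.840 and 0.160 CPM. Their endothelial marker sums of 230 and 200 CPM lay above the Ctrl range (101 to 196.98 CPM). Their smooth muscle sums of 87463 and 93140 CPM lay within the Ctrl range (74852 to 103218 CPM). The other marker lists are not given for these libraries, and a link to LEF1 was not tested. WIF1 was highest in the Lard libraries L562 (36.6 CPM), L575 (36.3 CPM) and L578 (28.9 CPM).

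Among the inhibitors, WIF1 had 3.29, 4.75 and 12.4 CPM in the Ctrl aorta, 6.52, 11.8 and 36.6 CPM under Lard and 5.72, 8.89 and 24.5 CPM under IR/CHT. It rose under Lard (1.76 ± 0.44, adjusted p = 0.0246) and IR/CHT (1.17 ± 0.43, adjusted p = 0.0255) and was not called under CHT (0.47, adjusted p = 0.462). Its call was lost in 7 of 27 fits that left out 1 library under Lard and in 3 of 27 under IR/CHT. DKK1, the LRP6 antagonist whose plasma protein the study also assayed, was scarce. It had 0, 0.186 and 0.511 CPM in Ctrl, 0.0469, 0.242 and 1.26 CPM under CHT, 0.214, 1.51 and 3.94 CPM under Lard and 0.436, 0.956 and 1.27 CPM under IR/CHT. DKK1 rose under Lard (2.83 ± 0.68, adjusted p = 0.0208) and IR/CHT (1.96 ± 0.68, adjusted p = 0.0179), with 0.80 ± 0.72 under CHT (adjusted p = 0.433), and its groups overlapped. DKK1 had at most 9 counts in a Ctrl library. It passed the filter on low counts largely through treated groups, so its calls under Lard and IR/CHT are a description. With no filter DKK1 was also called under Lard and IR/CHT. With only the IR/CHT and Ctrl libraries DKK1 did not pass the filter and could not be tested. DKK3, a DKK relative with no agreed role in the pathway, rose under IR/CHT from a median of 54.3 to 120 CPM (0.98 ± 0.35, adjusted p = 0.0224). FRZB, which binds Wnt ligands, fell under IR/CHT from 152.4, 192.4 and 252 CPM to 38.6, 96.4 and 167.2 CPM (-1.01 ± 0.25, adjusted p = 0.00123).

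Among the ligands of the aorta, WNT11, which signals largely outside the canonical branch, fell under CHT from 1.22, 3.48 and 6.69 CPM to 0.281, 1.24 and 1.57 CPM (-1.66 ± 0.45, adjusted p = 0.00671), and 6 of 7 Ctrl libraries lay above the highest CHT library. WNT8A, a canonical ligand, fell under IR/CHT from 2.75, 5.69 and 8.11 CPM to 1.86, 2.64 and 3.33 CPM (-1.20 ± 0.25, adjusted p = 0.000278). Its medians of 4.48 CPM under CHT and 5.14 CPM under Lard were not called. WNT5A, a ligand of the non-canonical branch, fell under IR/CHT from 2.25, 4.75 and 15.6 CPM to 1.55, 2.76 and 5.78 CPM (-1.06 ± 0.35, adjusted p = 0.0124), and was not called with only these 2 groups in the fit (adjusted p = 0.0503). WNT16 failed the filter in the aorta, with at most 0.219 CPM in Ctrl, 0.155 CPM under CHT and 0.464 CPM under Lard. All 7 IR/CHT libraries lay above the highest Ctrl library, between 0.33 and 3.7 CPM. DESeq2 and edgeR with no filter called WNT16 under IR/CHT. In the 6 fits that left out 1 CHT library it passed the filter largely through the IR/CHT group, where it was high, and those fits are no support.

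Among the receptors, the co-receptor LRP6 fell under IR/CHT from 312, 381 and 464 CPM to 148, 220 and 322 CPM (-0.73 ± 0.13, adjusted p = 4.67e-05), and under CHT its change of -0.43 (adjusted p = 0.0173) stayed under the fold threshold. FZD3, a receptor of the planar polarity branch, fell under IR/CHT from a median of 3.48 to 2.07 CPM (-0.78 ± 0.24, adjusted p = 0.00872). FZD1, a canonical receptor, rose from 2.16, 3.47 and 10.2 CPM to 4.42, 9.11 and 17.1 CPM (1.03 ± 0.40, adjusted p = 0.0356). Without the IR/CHT library L566, which stood apart by its heart muscle genes, FZD1 was not called (0.84, adjusted p = 0.0976) and 10 members were. Its call was lost in 8 of 27 fits that left out 1 library, with 5 of the 8 libraries from Ctrl and 3 from IR/CHT.

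AXIN2, TCF7 and LEF1 are genes whose transcription the pathway is known to raise. LEF1 was called higher in the aorta under all 3 treatments in the fit of all 4 groups, as given above, and AXIN2 and TCF7 were not called there. AXIN2 had medians of 15.9 CPM in Ctrl, 11.1 CPM under CHT, 16 CPM under Lard and 12.6 CPM under IR/CHT (log2 fold changes -0.45, -0.04 and -0.44, adjusted p = 0.22, 0.96 and 0.15). TCF7 had medians of 1.02 CPM in Ctrl and 1.16 CPM under IR/CHT (0.29, adjusted p = 0.63). Between IR/CHT and CHT no member was called by edgeR (0.596% of all genes), 9 had an unadjusted p under 0.05, and DESeq2 called 3, FZD1, WNT8A and WNT16.

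**Figure D3:**
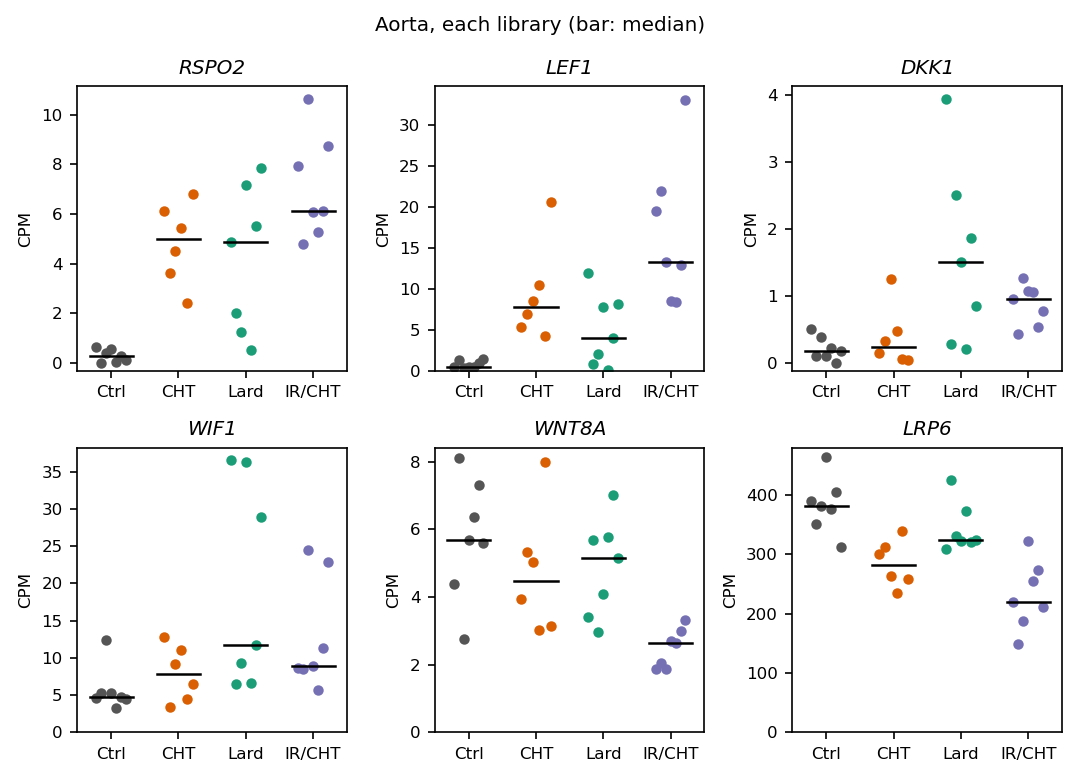
Level of 6 members in each aorta library (vertical axis, CPM) by treatment, with bars at the medians. RSPO2 and LEF1 lay above every Ctrl library in all CHT and IR/CHT libraries, DKK1 and WIF1 reached their highest values under Lard, and WNT8A and LRP6 were lowest under IR/CHT.

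Cell type markers moved in the aorta with the treatments. The summed level of 11 macrophage markers had medians of 120.2, 845, 330.1 and 1106 CPM in Ctrl, CHT, Lard and IR/CHT, and the 8 endothelial markers had 163, 534, 281 and 698 CPM. Smooth muscle markers had medians of 90837, 51175, 66672 and 29062 CPM, and 3 T cell markers had 0.884, 2.95, 1.30 and 6.22 CPM. The 8 markers of fibroblasts and valve interstitial cells had 15435, 19383, 21043 and 21306 CPM. The ranges of the macrophage sum did not overlap between Ctrl (59.0 to 263.6 CPM) and CHT (379 to 974 CPM) or IR/CHT (530.1 to 2008 CPM). Heart muscle markers had medians of 590.5, 297, 410.0 and 298 CPM. The part of these lists in the aortic changes of RSPO2, LEF1 and the other members was not tested.

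In the aortic valve, IR/CHT moved most of the tested members, and nearly all of them fell. The non-canonical ligands WNT5A and WNT5B, WNT16, both R-spondins, 7 of 9 receptors, the inhibitors DKK2, FRZB and WIF1, AXIN2 and all 4 nuclear factors fell, while SFRP2, DKK1 and WNT8B rose. Of 34 tested members 25 were called, 22 lower and 3 higher (among the 3 the scarce WNT8B), where 42.8% of all genes were called, 21.7% lower and 21.1% higher. The members' median log2 fold change was -1.28 and that of all genes -0.06, and in 11 members (20.9% of all genes) IR/CHT did not overlap Ctrl.

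Among the ligands, WNT5A (ENSOCUG00000000380) had 5.97, 9.57 and 11.1 CPM in Ctrl, 2.67, 5.37 and 8.09 CPM under CHT, 7.6, 11.2 and 12.6 CPM under Lard and 0.791, 1.56 and 1.9 CPM under IR/CHT. It fell by 2.57 ± 0.25 on the log2 scale against Ctrl (adjusted p = 4.18e-09) and every IR/CHT library lay below every library of the other 3 groups. WNT16, a ligand known from bone, had 134.4, 287 and 483 CPM in Ctrl, 144, 205 and 383 CPM under CHT, 251.1, 448 and 716 CPM under Lard and 12.6, 53.1 and 81.7 CPM under IR/CHT (-2.55 ± 0.40, adjusted p = 8.28e-06). It too was lower in every IR/CHT library than in any other library. WNT5B fell from 4.26, 8.7 and 15 CPM to 1.27, 2.69 and 4.18 CPM (-1.74 ± 0.35, adjusted p = 0.000201) with no overlap.

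WNT11 fell from a median of 17.3 to 3.46 CPM with overlap (-1.74 ± 0.53, adjusted p = 0.00812), and the canonical ligand WNT2B from 6.2 to 3.71 CPM (-0.80 ± 0.28, adjusted p = 0.0213). WNT2B was not called with only these 2 groups or in 4 of 27 fits that left out 1 library. WNT8B was the called ligand that rose. It had at most 0.106 CPM in Ctrl, under 3 counts in each library, and 0.24 to 1.19 CPM under IR/CHT (4 to 21 counts), which is at least 3.51-fold higher than 3 counts per Ctrl library would give. WNT8B passed the filter on low counts largely through the IR/CHT group, so its call is a description. With no filter its adjusted p was 0.00123. It did not pass the filter with only these 2 groups in the fit, on plate 1 alone or in 13 of 27 fits that left out 1 library.

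Both R-spondins fell. RSPO3 (ENSOCUG00000003681) had 22.2, 54.2 and 66.4 CPM in Ctrl, 23.8, 30.2 and 55.7 CPM under CHT, 43, 64.9 and 109 CPM under Lard and 2.82, 8.02 and 10.7 CPM under IR/CHT (-2.78 ± 0.32, adjusted p = 8.58e-08). RSPO2 had 40, 55.2 and 96 CPM in Ctrl and 6.71, 13.9 and 28.6 CPM under IR/CHT (-1.91 ± 0.31, adjusted p = 1.03e-05). Neither overlapped Ctrl. In the aorta of the same rabbits RSPO2 had risen.

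Of the receptors, FZD4 fell with no overlap, from 45.1, 60.8 and 73.9 CPM to 6.14, 28.3 and 36.9 CPM (-1.27 ± 0.24, adjusted p = 7.19e-05). FZD4 is known as the receptor for norrin in vessels as well as for Wnt ligands. FZD9 (-2.60 ± 0.69, adjusted p = 0.00303), FZD2 (-1.41 ± 0.39, adjusted p = 0.00377), FZD7 (-1.30 ± 0.42, adjusted p = 0.0123), FZD5 (-1.29 ± 0.45, adjusted p = 0.0187), FZD3 (-1.14 ± 0.32, adjusted p = 0.00488) and LRP6 (-0.82 ± 0.25, adjusted p = 0.00851) fell with overlapping libraries. LRP6 went from a median of 361 to 204 CPM and FZD2 from 15 to 5.88 CPM.

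The inhibitors split. DKK2 (ENSOCUG00000001765) had 29.2, 45.4 and 66.1 CPM in Ctrl, 13.1, 26.4 and 50.4 CPM under CHT, 34, 55.8 and 102 CPM under Lard and 1.46, 3.95 and 6.15 CPM under IR/CHT (-3.49 ± 0.35, adjusted p = 7.06e-09). FRZB had 197.8, 258.1 and 286 CPM in Ctrl and 17.7, 79.5 and 112 CPM under IR/CHT (-1.81 ± 0.27, adjusted p = 4.15e-06). Neither overlapped Ctrl. WIF1 fell from 23.6, 81.8 and 149 CPM to 18.2, 24.2 and 55.7 CPM (-1.55 ± 0.35, adjusted p = 0.000639), with overlap.

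SFRP2, a secreted Frizzled-related protein, rose. It had 4.03, 5.83 and 10.2 CPM in Ctrl, 6.6, 42 and 79.9 CPM under CHT, 4.18, 8.58 and 20.3 CPM under Lard and 24.5, 27.6 and 53.7 CPM under IR/CHT (2.35 ± 0.43, adjusted p = 5.58e-05). All IR/CHT libraries and 5 of 6 CHT libraries lay above the highest Ctrl library. DKK1 rose under IR/CHT from 0, 0.673 and 1.66 CPM to 1.33, 2.88 and 4.92 CPM (2.03 ± 0.62, adjusted p = 0.0081), with 5 of 7 IR/CHT libraries above the highest Ctrl library. Its changes under CHT (0.52, adjusted p = 0.579) and Lard (0.79, adjusted p = 0.482) were not called.

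AXIN2 and the 4 nuclear factors fell. AXIN2 had 30.7, 68.4 and 164 CPM in Ctrl, 21.7, 36.1 and 50.6 CPM under CHT, 35.9, 52.4 and 95.4 CPM under Lard and 9.71, 21.1 and 31.1 CPM under IR/CHT (-1.90 ± 0.32, adjusted p = 1.87e-05). LEF1 had 40.1, 69.5 and 89.6 CPM in Ctrl and 17.4, 27.7 and 45.9 CPM under IR/CHT (-1.04 ± 0.21, adjusted p = 0.000179). TCF7L1 fell from 9.19, 10.9 and 32.3 CPM to 2.32, 5.32 and 7.96 CPM with no overlap (-1.69 ± 0.38, adjusted p = 0.000606), TCF7 from a median of 5.72 to 2.1 CPM (-1.40 ± 0.32, adjusted p = 0.000798) and TCF7L2, the broadly expressed TCF factor, from 76.6 to 44.2 CPM (-0.73 ± 0.18, adjusted p = 0.00157).

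**Figure D4:**
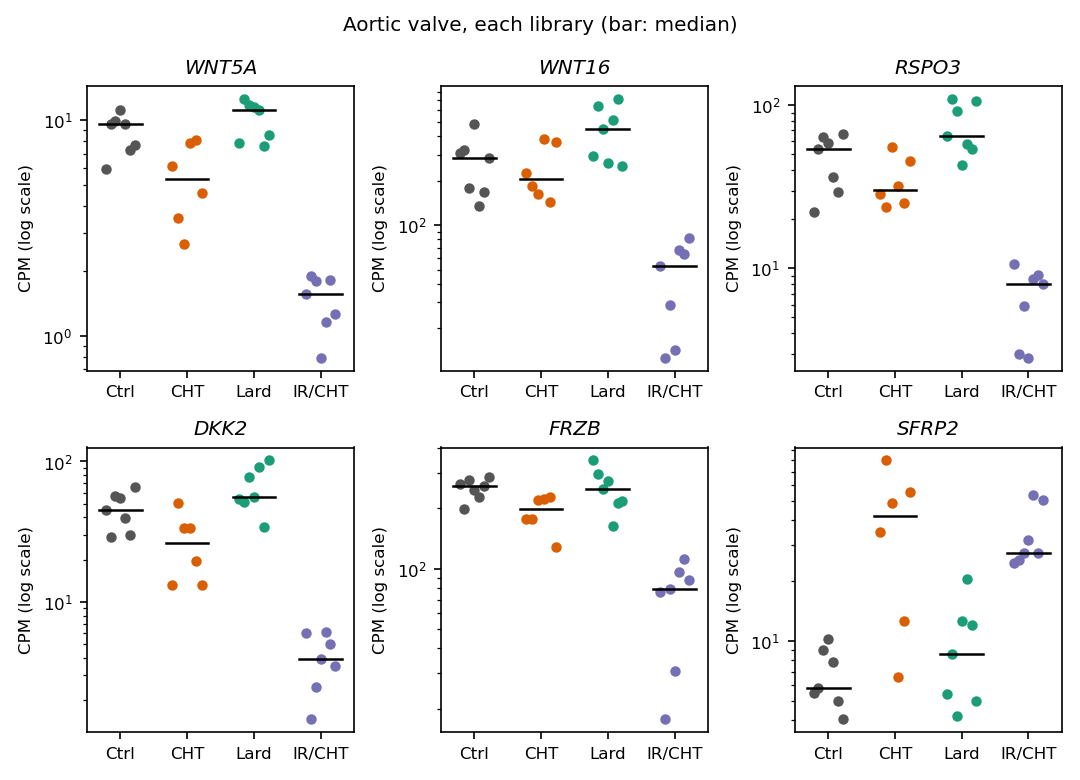
Level of 6 members in each aortic valve library (vertical axis, CPM on a log scale) by treatment, with bars at the medians. WNT5A, WNT16, RSPO3, DKK2 and FRZB were lower in every IR/CHT library than in any Ctrl or CHT library, and SFRP2 was higher in every IR/CHT library than in any Ctrl library.

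Irradiated rabbits were also compared with non-irradiated rabbits on the cholesterol diet. Between IR/CHT and CHT in the aortic valve 13 of 34 members were called, all lower (19.7% of all genes called, 9.85% lower), and 7 did not overlap (9.95% of all genes). The members' median log2 fold change was -0.80, beside 0.02 over all genes. The 7 were DKK2 (-2.73 ± 0.35, adjusted p = 7.13e-06), WNT16 (-2.41 ± 0.41, adjusted p = 0.000127), RSPO3 (-2.35 ± 0.33, adjusted p = 1.54e-05), WIF1 (-1.998 ± 0.36, adjusted p = 0.000249), WNT5A (-1.90 ± 0.25, adjusted p = 9.28e-06), FRZB (-1.43 ± 0.28, adjusted p = 0.00047) and LEF1 (-1.03 ± 0.21, adjusted p = 0.0009).

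RSPO2 (-1.32 ± 0.31, adjusted p = 0.00271), FZD3 (-1.11 ± 0.33, adjusted p = 0.016), TCF7 (-0.92 ± 0.33, adjusted p = 0.0449), WNT2B (-0.86 ± 0.29, adjusted p = 0.0323), LRP6 (-0.76 ± 0.26, adjusted p = 0.0338) and TCF7L2 (-0.73 ± 0.19, adjusted p = 0.00543) were lower with overlapping libraries. AXIN2 (-0.84, adjusted p = 0.0591) and FZD4 (-0.54, adjusted p = 0.106) were not called between these groups, nor were SFRP2 (-0.21, adjusted p = 0.775) and DKK1 (1.51, adjusted p = 0.0871). AXIN2 was called with plate as a covariate, on plate 1 alone, with only these 2 groups, without the libraries that stood apart (15 called, with WNT5B also added) and in 6 of 27 fits that left out 1 library. LRP6 and TCF7 lost their calls with plate as a covariate, WNT2B on plate 1 alone, and TCF7 and WNT2B with only these 2 groups. TCF7 lost its call in 12 of 27 fits that left out 1 library, LRP6 in 6 and WNT2B in 4.

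Without irradiation, under CHT, 3 of 34 members were called in the aortic valve, where 11.9% of all genes were called, 8.42% higher and 3.48% lower. SFRP2 rose (2.55 ± 0.44, adjusted p = 0.000142), FZD4 fell with no overlap from 45.1, 60.8 and 73.9 CPM to 22.7, 38.9 and 43.3 CPM (-0.73 ± 0.24, adjusted p = 0.0479; 5.47% of all genes did not overlap) and AXIN2 fell (-1.06 ± 0.32, adjusted p = 0.0286). The CHT libraries all lay on plate 1. With plate as a covariate SFRP2 remained called (2.51, adjusted p = 0.000798), and AXIN2 (-0.94, adjusted p = 0.0972) and FZD4 (-0.63, adjusted p = 0.166) were not. On plate 1 alone, with 3 Ctrl libraries, AXIN2 was called and SFRP2 was not (2.24, adjusted p = 0.0552). Without the Ctrl libraries L240 and L277, which stood apart by heart muscle genes, 5 members were called and FZD4 was not (adjusted p = 0.0529). FZD4 lost its call in 19 of 27 fits that left out 1 library and AXIN2 in 6. DESeq2 called 8 members. Under Lard edgeR called no member (0.234% of all genes), 2 had an unadjusted p under 0.05, and DESeq2 called 0.

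The IR/CHT comparison with Ctrl could be made on each plate. Plate 1 (4 IR/CHT against 3 Ctrl libraries) gave 19 called members and plate 2 (3 against 4) gave 11. Log2 fold changes on plates 1 and 2 were -3.62 and -3.45 for DKK2, -2.99 and -2.56 for RSPO3, -2.77 and -2.34 for WNT5A, -3.19 and -1.92 for WNT16, -2.31 and -1.33 for FRZB, -2.47 and -1.38 for RSPO2, and 1.99 and 2.68 for SFRP2, and each was called on both plates. AXIN2 (-2.56 and -1.24), FZD4 (-1.56 and -0.96) and WNT5B (-1.77 and -1.76) were also called on both. DKK1 was called on neither (1.56, adjusted p = 0.142, and 2.49, adjusted p = 0.0656), nor were FZD2, FZD5, FZD7 and WNT2B. On plate 2 none of the 4 nuclear factors was called (LEF1, TCF7, TCF7L1 and TCF7L2), nor were WIF1, LRP6, FZD3, FZD9 and WNT11. TCF7 had -2.37 on plate 1 and -0.48 on plate 2 (adjusted p = 0.000483 and 0.44). The IR/CHT libraries L178 and L236, both on plate 1, were the lowest for FRZB (17.7 and 31.0 CPM) and WNT16 (12.6 and 14.2 CPM), and their endothelial marker sums of 64.7 and 133 CPM lay below those of the other IR/CHT libraries (165.9 to 736 CPM). Endothelial sums ran from 105 to 641 CPM in Ctrl and from 75.4 to 736 CPM under Lard. Their part in the levels of FRZB and WNT16 was not tested. Without the 2 Ctrl libraries that stood apart 28 members were called, with all 25 among them.

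Markers moved here too. The macrophage sum was 200.7 to 643 CPM in Ctrl, 782 to 1175 CPM under CHT, 132 to 745 CPM under Lard and 1991 to 2494 CPM under IR/CHT, and the T cell sum had medians of 0.371, 2.82, 0.565 and 15.6 CPM. Markers of fibroblasts and valve interstitial cells had medians of 26544, 28365, 30022 and 27391 CPM, and endothelial markers 509.8, 584, 234.2 and 534 CPM, with overlapping ranges in all groups. Heart muscle markers had medians of 832, 65.6, 77.8 and 68.1 CPM in Ctrl, CHT, Lard and IR/CHT, with Ctrl libraries from 185.4 to 12968 CPM and IR/CHT libraries from 29.5 to 258.1 CPM. From Ctrl to IR/CHT the medians of adipocyte markers went from 8.28 to 3.68 CPM and those of neutrophil markers from 0.742 to 2.34 CPM. The part of these lists in the fall of the Wnt members was not tested.

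In the mitral valve fewer members were called, and the genes that fell included the R-spondins, FZD4, FRZB and WNT5A. Under IR/CHT 11 of 34 were called, all lower (17.7% of all genes called, 6.65% lower), and 5 did not overlap Ctrl (10.1% of all genes). The members' median log2 fold change was -0.32 and that of all genes -0.01. Under CHT 2 were called, both lower (5.62% of all genes, 0.640% lower). FZD4 and TCF7, which was not called, did not overlap Ctrl (4.01% of all genes).

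Both genes of the CHT comparison were also called under IR/CHT, and the comparisons share the 6 Ctrl libraries. FZD4 had 77.9, 85.5 and 113 CPM in Ctrl, 35.3, 55.5 and 73.4 CPM under CHT, 60.9, 76.4 and 81.6 CPM under Lard and 38.9, 45.8 and 61 CPM under IR/CHT. It fell under CHT (-0.68 ± 0.14, adjusted p = 0.0027) and IR/CHT (-0.87 ± 0.14, adjusted p = 3.23e-05). RSPO2 had 38.9, 62.4 and 70.7 CPM in Ctrl, 24.7, 30.5 and 49.9 CPM under CHT and 20.4, 26.4 and 37.9 CPM under IR/CHT (-0.81 ± 0.21, adjusted p = 0.0144, and -1.14 ± 0.20, adjusted p = 0.000121). Its CHT range overlapped Ctrl and its IR/CHT range did not.

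FRZB (262.2, 302 and 445 CPM in Ctrl, 105, 189.1 and 209 CPM under IR/CHT) fell by 0.97 ± 0.18 on the log2 scale (adjusted p = 0.000218). RSPO3 (45.7, 57.2 and 78.4 CPM in Ctrl, 9.47, 21.2 and 45.6 CPM under IR/CHT) fell by 1.32 ± 0.28 (adjusted p = 0.00105). WNT5A (9.44, 11.1 and 13 CPM in Ctrl, 3.51, 6.77 and 7.72 CPM under IR/CHT) fell by 0.86 ± 0.22 (adjusted p = 0.00453). No IR/CHT library of these genes reached the lowest Ctrl library.

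With overlapping libraries, DKK2 (-1.69 ± 0.34, adjusted p = 0.000568), the ligand-binding inhibitors SFRP4 (-0.95 ± 0.25, adjusted p = 0.0061) and SFRP5 (-1.91 ± 0.66, adjusted p = 0.0326), LEF1 (-0.67 ± 0.18, adjusted p = 0.00632), FZD3 (-0.78 ± 0.27, adjusted p = 0.0303) and WNT16 (-0.76 ± 0.26, adjusted p = 0.0356) fell. AXIN2 went from a median of 65.6 to 52 CPM (-0.51 ± 0.15, adjusted p = 0.013), under the fold threshold. TCF7 had -0.62 under IR/CHT (adjusted p = 0.053), and DKK1 had medians of 1.46 CPM in Ctrl, 0.243 CPM under CHT, 0.661 CPM under Lard and 1.09 CPM under IR/CHT, with no call.

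On plate 1 alone, 7 members were called under IR/CHT and 1 under CHT. WNT5A, SFRP4, SFRP5, FZD3 and WNT16 lost their IR/CHT calls there, AXIN2 gained one, and FZD4 lost its CHT call. The FZD3, WNT16, SFRP5 and LEF1 calls under IR/CHT were each lost in 2 to 8 of 26 fits that left out 1 library. Under Lard edgeR called no member (0.00% of all genes), 0 had an unadjusted p under 0.05 and DESeq2 called 0. Between IR/CHT and CHT no member was called (0.189% of all genes), 8 had an unadjusted p under 0.05 and DESeq2 called 1, DKK2. Macrophage markers had medians of 433, 935, 465 and 1279.9 CPM in Ctrl, CHT, Lard and IR/CHT of the mitral valve. T cell markers were at 0.534 to 1.91 CPM in Ctrl and 3.12 to 18.1 CPM under IR/CHT, and adipocyte markers had medians of 40.1 and 15.5 CPM in these groups. Their part was not tested.

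In the pulmonary and tricuspid valves edgeR called no member in any of the 8 comparisons, where at most 0.706% of all genes were called. In the pulmonary valve 0.159% of all genes were called under CHT, 0.00% under Lard, 0.706% under IR/CHT and 0.0761% between IR/CHT and CHT. In the tricuspid valve the shares were 0.163%, 0.00%, 0.231% and 0.00%. Between 1 and 7 members per comparison had an unadjusted p under 0.05. DESeq2 called FZD4 under CHT in the pulmonary valve, FZD4 and WIF1 under CHT in the tricuspid valve, and no other member.

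FZD4 came closest to a call in the pulmonary valve, with 58.7, 74.3 and 82.5 CPM in Ctrl and 31.3, 47.3 and 59.7 CPM under CHT (-0.67 ± 0.16, adjusted p = 0.0917). Its tricuspid medians were 107 CPM in Ctrl and 55.3 CPM under CHT (-0.78 ± 0.19, adjusted p = 0.165). In the aorta FZD4 had a change of -0.58 ± 0.16 under CHT (adjusted p = 0.00644), under the fold threshold. Its CHT change was therefore between -0.78 and -0.58 on the log2 scale in all 5 tissues, and in the fits of all libraries it was called in the aortic and mitral valves. WIF1 had 0.99 ± 0.23 under CHT in the tricuspid valve (adjusted p = 0.0971). Without the libraries that stood apart FZD4 was called under CHT in both right-sided valves and under IR/CHT in the tricuspid valve, and WIF1 under CHT in the tricuspid valve.

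DKK1 had medians of 0.763, 1.31, 1.01 and 0.894 CPM in Ctrl, CHT, Lard and IR/CHT of the pulmonary valve, and of 0.365, 0.511, 0.656 and 0.512 CPM in the tricuspid valve. LEF1 had medians of 61.5 CPM in Ctrl and 57.3 CPM under IR/CHT in the pulmonary valve, and of 40.2 and 51.4 CPM in the tricuspid valve. AXIN2 had medians of 15.3 and 14.7 CPM in the pulmonary and of 16.3 and 27.2 CPM in the tricuspid valve for the same groups. TCF7 had medians of 3.42 and 3.31 CPM in the pulmonary and of 2.68 and 3.21 CPM in the tricuspid valve for these groups. The groups overlapped for all of these genes. Macrophage markers had medians of 689, 702, 596 and 812 CPM in the pulmonary valve and 600, 621, 626 and 799 CPM in the tricuspid valve.

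Whether the response to IR/CHT differed between tissues was tested directly, by the interaction of tissue and treatment (adjusted p under 0.05, with no fold limit). Between the aortic valve and the aorta 21 of 36 members differed, 18 with the lower response in the valve (32.8% of all genes differed). The widest were RSPO2 (-6.63, adjusted p = 2.3e-11), LEF1 (-5.57, adjusted p = 2.82e-09), DKK2 (-4.49, adjusted p = 4.11e-09) and WIF1 (-2.86, adjusted p = 0.000133), beside WNT16 and FZD9, whose fitted values rest on an aortic Ctrl level at or near the floor. RSPO2 was also scarce in the Ctrl aorta, with at most 11 counts in a library. RSPO2, LEF1 and WIF1 rose in the aorta and fell in the valve. WNT8A had the reverse difference (1.70, adjusted p = 0.00148), having fallen in the aorta. DKK1, which was called higher in both, had a difference of -0.08 ± 0.74 (adjusted p = 0.943). Its call in the aorta is a description, since it passed the filter there largely through treated groups. Without the libraries that stood apart 19 differed, and TCF7L2 and WNT10B did not.

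Under CHT 3 of 36 members had unequal responses in aortic valve and aorta (5.30% of all genes), RSPO2 (-4.67, adjusted p = 2.68e-06), LEF1 (-3.62, adjusted p = 0.000212) and SFRP2 (2.43, adjusted p = 0.0164). With the rabbit as a block SFRP2 no longer differed (2.21, adjusted p = 0.0577). Between the aortic and pulmonary valves 24 of 34 members differed in the IR/CHT response (40.2% of all genes), 22 of them lower in the aortic valve, among them DKK2 (-3.27, adjusted p = 1.27e-08), WNT5A (-2.68, adjusted p = 1.14e-07), RSPO3 (-2.49, adjusted p = 1.04e-07) and AXIN2 (-2.14, adjusted p = 4.33e-05). SFRP2 (1.88, adjusted p = 0.0298) and DKK1 (2.25, adjusted p = 0.0427) were higher. Without the libraries that stood apart 21 differed, with DKK1, SFRP2, LRP6 and WNT2B lost and SFRP5 added. Between the mitral and tricuspid valves 6 of 34 differed, all lower in the mitral valve (9.56% of all genes): WNT16, FRZB, RSPO2, RSPO3, WIF1 and SFRP4, with differences from -1.47 to -0.94. Without the libraries that stood apart, and with the rabbit as a block, 11 differed.

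**Figure D5:**
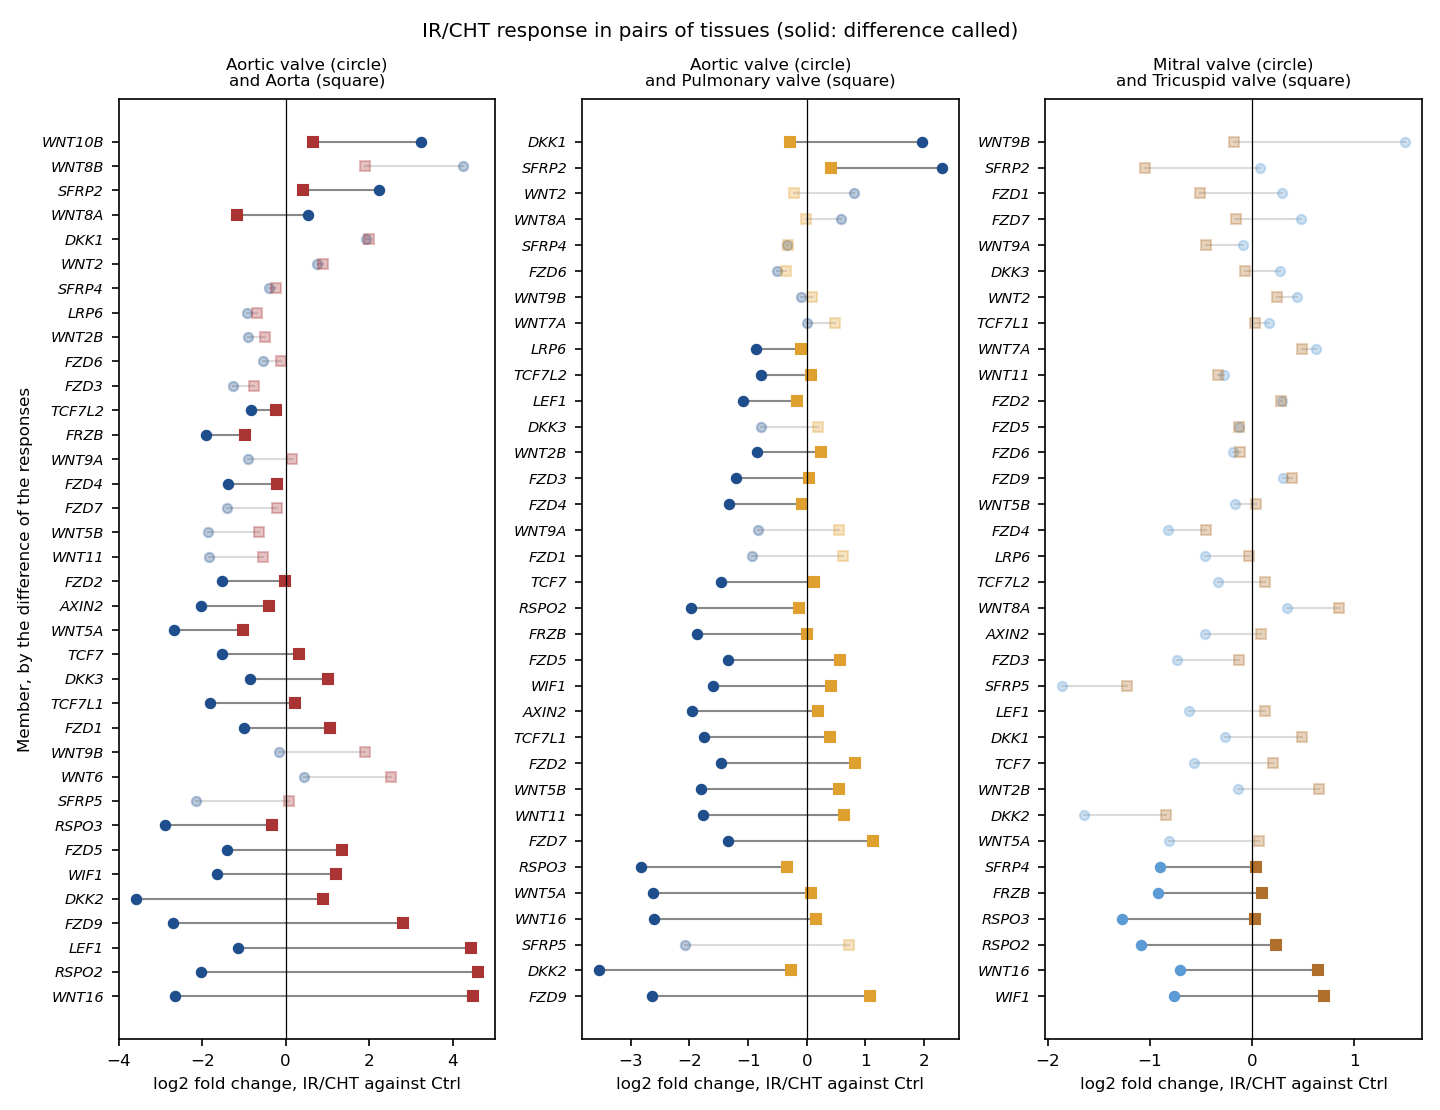
Log2 fold change of IR/CHT against Ctrl (horizontal axis) of each tested member (vertical axis, ordered by the difference) in 3 pairs of tissues, circles for the first tissue and squares for the second. Solid marks show differences with an adjusted p under 0.05, 21 for aortic valve and aorta, 24 for aortic and pulmonary valve and 6 for mitral and tricuspid valve, and most circles lie left of their squares.

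Other genes of the pathway were taken from a list grouped by role. In the aorta 16 of 43 tested were called under CHT (7 higher, 9 lower), 1 under Lard and 18 under IR/CHT (9 higher, 9 lower), beside the shares of 19.4%, 2.61% and 34.3% of all genes. CD44, a cell adhesion receptor and known target of the pathway, rose under CHT from 127, 172.5 and 230.5 CPM to 258.1, 352 and 489.9 CPM (1.03 ± 0.15, adjusted p = 8.77e-06). LRP4, a receptor that binds the inhibitor sclerostin, rose from 16, 26.8 and 31.2 CPM to 47.8, 59.8 and 82.9 CPM (1.33 ± 0.20, adjusted p = 1.5e-05). PYGO1, a nuclear partner of beta-catenin, fell (-0.95 ± 0.18, adjusted p = 0.000184), as did APCDD1, a membrane inhibitor of Wnt binding (-1.17 ± 0.26, adjusted p = 0.00116). Under IR/CHT LRP4 (1.77 ± 0.20, adjusted p = 7.54e-08), CD44 (1.28 ± 0.15, adjusted p = 1.23e-07) and the transducer DVL3 (1.15 ± 0.20, adjusted p = 4.63e-05) rose, and the R-spondin receptor LGR4 fell from 39.3, 54.1 and 61.8 CPM to 11.7, 16.7 and 31.5 CPM (-1.43 ± 0.20, adjusted p = 2.36e-06).

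In the aortic valve 5 of 45 other pathway genes were called under CHT (1 higher, 4 lower) and 26 under IR/CHT (7 higher, 19 lower), beside 11.9% and 42.8% of all genes. Under CHT CD44 rose (1.41 ± 0.17, adjusted p = 8.63e-07), and DAAM2, a formin of the planar polarity branch (-0.96 ± 0.24, adjusted p = 0.00794), SOST, which encodes sclerostin (-1.80 ± 0.50, adjusted p = 0.0159), and PORCN, which attaches the lipid that Wnt ligands need for secretion (-0.89 ± 0.25, adjusted p = 0.0177), fell. Under IR/CHT CD44 rose from 123, 213 and 240 CPM to 791, 1034 and 1276 CPM (2.34 ± 0.17, adjusted p = 2.54e-11) and LRP4 from 62.3, 71.7 and 85.6 CPM to 178.4, 214 and 319.6 CPM (1.70 ± 0.15, adjusted p = 8.46e-10). TNFRSF19, a receptor known as a target of the pathway, fell from 46.7, 66.4 and 78.9 CPM to 6.97, 17.2 and 21.3 CPM (-2.05 ± 0.22, adjusted p = 1.47e-08), and DAAM2 fell (-1.67 ± 0.24, adjusted p = 1.76e-06).

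By role, the called genes of the aortic valve under IR/CHT were both secretion genes (lower), 4 of 7 other receptors, 6 of 6 other inhibitors (1 higher, 5 lower), 2 of 10 cytoplasmic transducers, 3 of 7 nuclear partners (lower), 5 of 8 planar polarity genes (1 higher, 4 lower) and 4 of 5 transcriptional targets (3 higher, 1 lower). Between IR/CHT and CHT 14 of 45 were called (19.7% of all genes). In the mitral valve 1 of 44 was called under CHT (5.62% of all genes) and 9 under IR/CHT (4 higher, 5 lower, 17.7% of all genes), and none in the pulmonary and tricuspid valves. CD44 is also expressed by macrophages, whose marker sums were higher in the same groups, and the part of those cells in its change was not tested.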

How the data were processed

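RNA of the aorta and 4 heart valves was sequenced from libraries made with the SMARTer Stranded Total RNA-Seq Pico kit. The authors converted reads with bcl2fastq 2.20, aligned them to the rabbit genome OryCun2.0 with the nf-core/rnaseq pipeline and deposited 2 tables of whole-number counts per gene, 1 per plate of 67 libraries. The pipeline was run at its defaults apart from read trimming, and the strand setting this gives is not named in the sources used here. Of the rows, 14871 carry an identifier without a symbol and could not be members. No genome or gene lengths of this build were used, so positions, sequences and levels between genes are not given.

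Counts of each tissue were filtered with filterByExpr (minimum count 10), scaled by TMM and fitted with edgeR 4.0.16 (glmQLFit and glmQLFTest, robust) in R 4.3.3, with a mean per treatment, Benjamini-Hochberg adjustment over all genes tested, and the study's thresholds of adjusted p 0.05 and fold change 1.5. Ctrl tissues were compared with the rabbit as a block, and responses of 2 tissues by an interaction test. The replicate is the library of 1 rabbit. Rabbit numbers in the library names pair the tissues: median correlations of deviations from group means were 0.170 to 0.439 within a rabbit and -0.0143 to 0.00712 between rabbits, over 17030 genes. The scripts were tested on simulated data.

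The members and lists were chosen with earlier results of these data known. Members named are those called (at most 25 per treatment comparison, at most 8 per tissue comparison, every called interaction), DKK1, AXIN2, LEF1 and TCF7 in each tissue, and members at or under 3 counts in every library. Other pathway genes are counted by role, and the 4 of smallest p are named for CHT and IR/CHT in the aorta and aortic valve. A 3-count floor per library stands for a group at 0. Alternatives were DESeq2 1.42.0, its size factors in edgeR, no filter, only the 2 groups compared, plate as a covariate, single plates, other blocking, leaving out each library or Ctrl rabbit in turn, and, chosen after seeing the data, leaving out the 10 libraries that stood apart or the pair that went against its labels.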

Additional observations from a re-analysis of the deposited data

Results flagged for a closer look

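In 5 of 120 groups of libraries 1 library lay far from the others of its group by Dixon's test, which flags about 1 in 20 groups by chance. These were FZD5 in the IR/CHT aortic valve (library L194 at 3.23 CPM, the next at 1.58 CPM), LEF1 in the CHT aortic valve (L228 at 101 CPM, the next at 65.4 CPM), WIF1 in the Ctrl aorta (L553 at 12.4 CPM, the next at 5.31 CPM), WIF1 in the IR/CHT aortic valve (L547 at 55.7 CPM, the next at 34.2 CPM) and WNT11 in the CHT aorta (L574 at 0.281 CPM, the next at 1.14 CPM).

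In 54 cases the response of a member differed between 2 tissues by edgeR's interaction test. Values are log2 differences, the first tissue's change minus the second's. For the aortic valve minus the aorta under CHT they were -4.67 for RSPO2, -3.62 for LEF1 and 2.43 for SFRP2.

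For the aortic valve minus the aorta under IR/CHT, ligands gave -7.15 for WNT16, -1.64 for WNT5A, 1.70 for WNT8A and 2.60 for WNT10B. R-spondins gave -6.63 for RSPO2 and -2.55 for RSPO3. Receptors gave -5.52 for FZD9, -2.76 for FZD5, -2.06 for FZD1, -1.52 for FZD2 and -1.17 for FZD4. Inhibitors gave -4.49 for DKK2, -2.86 for WIF1, -1.86 for DKK3, -0.94 for FRZB and 1.82 for SFRP2. AXIN2 gave -1.61, LEF1 -5.57, TCF7L1 -2.03, TCF7 -1.85 and TCF7L2 -0.59. The sizes for WNT16, FZD9 and WNT10B depend on the prior count, since a Ctrl group of each had at most a few counts per library. Those for RSPO2 rest on Ctrl aorta libraries of at most 11 counts.

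For the aortic minus the pulmonary valve under IR/CHT, ligands gave -2.77 for WNT16, -2.68 for WNT5A, -2.41 for WNT11, -2.35 for WNT5B and -1.08 for WNT2B. R-spondins gave -2.49 for RSPO3 and -1.83 for RSPO2. Receptors gave -3.72 for FZD9, -2.48 for FZD7, -2.29 for FZD2, -1.90 for FZD5, -1.25 for FZD4, -1.24 for FZD3 and -0.77 for LRP6. Inhibitors gave -3.27 for DKK2, -2.01 for WIF1, -1.88 for FRZB, 1.88 for SFRP2 and 2.25 for DKK1. AXIN2 gave -2.14, TCF7L1 -2.15, TCF7 -1.59, LEF1 -0.92 and TCF7L2 -0.84. For the mitral minus the tricuspid valve they were -1.47 for WIF1, -1.35 for WNT16, -1.33 for RSPO2, -1.31 for RSPO3, -1.02 for FRZB and -0.94 for SFRP4. The aortic valve Ctrl, aorta IR/CHT, pulmonary IR/CHT and tricuspid Ctrl and IR/CHT groups hold libraries that stood apart, and the part of those libraries was tested only by leaving them out.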

How the results depend on the processing

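Of 841 values, under the alternatives, of members that had been called, 765 kept their direction and side of the threshold, 76 kept the direction and lost the call, and 0 reversed. Members that gained a call, or failed the filter under an alternative, are not among these values. Fits that left out 1 library or 1 rabbit are not among them either. Each comparison of Ctrl tissues enters with at most 8 called members. Counts of called members moved by over 1.5 times in these cases, and the cause was not tested. In the Ctrl rabbits, semilunar against atrioventricular valves (1 called) gave 2 with DESeq2, 8 with libraries of all 4 treatments, 0 on plate 2 alone, 6 without the libraries that stood apart and 1 to 6 without 1 rabbit (2 without L08273, 6 without L08256), and left against right valves (20) gave 0 on plate 2 alone. In the aorta, CHT against Ctrl (3) gave 3 to 6 without 1 library (5 without Ctrl L568, 6 without CHT L559), Lard (4) gave 0 with only the 2 groups compared and 2 to 4 without 1 library (2 without Ctrl L568 or Lard L562), and IR/CHT against CHT (0) gave 3 with DESeq2, 1 with no filter and 0 to 2 without 1 library (2 without CHT L572 or IR/CHT L579). In the aortic valve, CHT (3) gave 8 with DESeq2, 1 on plate 1 alone, 1 with plate as a covariate, 5 without the libraries that stood apart and 1 to 10 without 1 library (1 without CHT L186 or L228, 6 without L244 and 10 without L151), and IR/CHT (25) gave 11 on plate 2 alone. In the mitral valve, CHT (2) gave 1 on plate 1 alone and 1 to 3 without 1 library (1 without CHT L266 or Ctrl L278), IR/CHT (11) gave 7 on plate 1 alone and 7 to 13 without 1 library (7 without L195), and IR/CHT against CHT (0) gave 1 with DESeq2 and 0 to 1 without 1 library. In the pulmonary valve CHT (0) gave 1 with DESeq2, 1 with only the 2 groups compared, 1 without the libraries that stood apart and 0 to 1 without 1 library. In the tricuspid valve CHT (0) gave 2 with DESeq2, 1 on plate 1 alone, 2 without the libraries that stood apart and 0 to 2 without 1 library (2 without Ctrl L168), and IR/CHT (0) gave 2 on plate 1 alone, 1 without those libraries and 0 to 2 without 1 library (2 without Ctrl L168).

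With the rabbit as a replicate block, the mitral minus tricuspid difference under IR/CHT went from 6 to 11 members, adding AXIN2, LEF1, TCF7, WNT2B and WNT5A, and to 11 without the libraries that stood apart. SFRP2 lost its difference under CHT between aortic valve and aorta, and under IR/CHT TCF7L2 and WNT10B lost theirs and FZD7 and WNT9B gained one. Without the block, left against right valves gave 15 of 20 calls and the other Ctrl comparisons changed by no call. Members at a few counts per library, such as WNT8B, lay close to the limit of the filter. DKK1 in the aorta did not pass the filter when only Ctrl and Lard or Ctrl and IR/CHT were fitted.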
